A study of Homo sapiens with 32 samples.

Results

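Thapsigargin was applied to C4-2B cells carrying a control siRNA, and the transcriptome of the treated cells is described here against that of the same cells without the drug. C4-2B is a castration-resistant human prostate cancer line derived from LNCaP. The comparison rests on 8 of the 32 libraries of the series, chosen by their labels. The first group holds 4 libraries of siCTRL C4-2B cells given thapsigargin (TG), and the second holds 4 libraries of siCTRL C4-2B cells not given TG, which received vehicle per the series text. Both groups share the line and the control siRNA. The other 24 libraries are C4-2B cells with siRNAs against MOCOS and all groups of LNCaP, and of these only the 8 siCTRL LNCaP libraries are used, in the closing comparison. The series describes the replicates as biological. No dose of TG and no length of exposure could be taken from the labels.

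Thapsigargin blocks SERCA, the pump that loads the endoplasmic reticulum (ER) with calcium. Many ER chaperones need calcium, so its loss leaves unfolded protein in the ER and sets off the unfolded protein response (UPR). The UPR has 3 sensors in the ER membrane. IRE1 (gene ERN1) splices the mRNA of XBP1 into an active form, ATF6 is cleaved in the Golgi to free a transcription factor, and PERK (gene EIF2AK3) phosphorylates eIF2alpha, which lowers overall translation while favouring that of ATF4. ATF4 then drives CHOP (gene DDIT3) and genes of amino acid supply. Luminal cells of the prostate depend on androgen, which maintains their secretory programme.

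Levels are given as CPM, the usual counts relative to library size after TMM scaling, and differences as log2 fold changes of TG over no TG with a standard error (SE). A gene was called higher or lower at an adjusted p under 0.05 in edgeR's quasi-likelihood test over all 13372 genes that passed the count filter. The libraries held 14347220 to 24362179 counts with TG and 12426702 to 18369998 without. TG replicate 3 and untreated replicate 2 stood apart from the rest of their groups. Their genes deviated from the group mean with an SD of 0.347 and 0.331 on the log2 scale, against 0.161 to 0.267 in the other 6 libraries. In both, the deviations rose with gene length (r = 0.365 and 0.347 across genes, which are not independent), and the 20 most abundant genes took 16% and 15.7% of the counts, against 10.3 to 13.6% elsewhere. Without these 2 libraries the counts of called genes were 3701 higher and 3239 lower.

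The cells carried the markers of their label. FOLH1, the prostate-specific membrane antigen of luminal epithelium, had 839 to 1008 CPM with TG and 905 to 1154 CPM without and was not called, and the 14 luminal markers summed to 2792 to 2992 CPM with TG and 3831 to 4218 CPM without. In bulk RNA, fewer cells of a type and less RNA per cell cannot be told apart. The 14 basal and mesenchymal markers summed to 228 to 431 CPM with TG and 239 to 443 CPM without. Markers of immune, stromal, endothelial, blood and neuroendocrine cells were scarce. The 22 immune, stromal, endothelial and blood markers in the table summed to 22.9 to 30.3 CPM with TG, against 8.74 to 14.5 CPM without, and 8 of them were at 0 in all 8 libraries. Of the 4 that could be tested, VWF, CD8A and COL1A1 were called higher. A marker near 0 without TG could pass the count filter only by being high with TG. These calls are therefore no support for a rise of the list, and the part of these genes in other results was not tested. The 12 neuroendocrine markers summed to 8.73 to 13.6 CPM with TG and 5.31 to 7.54 CPM without.

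Relative to the other genes of the library, nearly as many genes were called lower with TG as higher. Of the genes tested, 3331 (24.9%) were called higher and 2854 (21.3%) lower, which together are 46.3%, and the median log2 change of all tested genes was 0.01. TMM scaling takes most genes as unchanged, so this median and balance cannot show a shift of total RNA. With scaling by library size alone, 3640 were called higher and 2368 lower. The libraries of the groups did not overlap for 5542 genes (41.4%). Beyond 2 on the log2 scale, 272 called genes rose and 61 fell. Genes near 0 in a group could pass the count filter only through the other group. Their log2 size also depends on the small constant added to counts. All 9 called genes that were at 0 in every library of a group were higher with TG. The part of such genes in the uneven numbers was not tested. Genes called higher took 25.6 to 27.2% of the counts of tested genes with TG, against 14.4 to 15.5% without. Genes called lower took 20.6 to 23.9% with TG, against 32.6 to 36.9% without. Because the calls come from these same libraries, the direction of both differences was fixed in advance, and only their size is described.

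**Figure D1:**
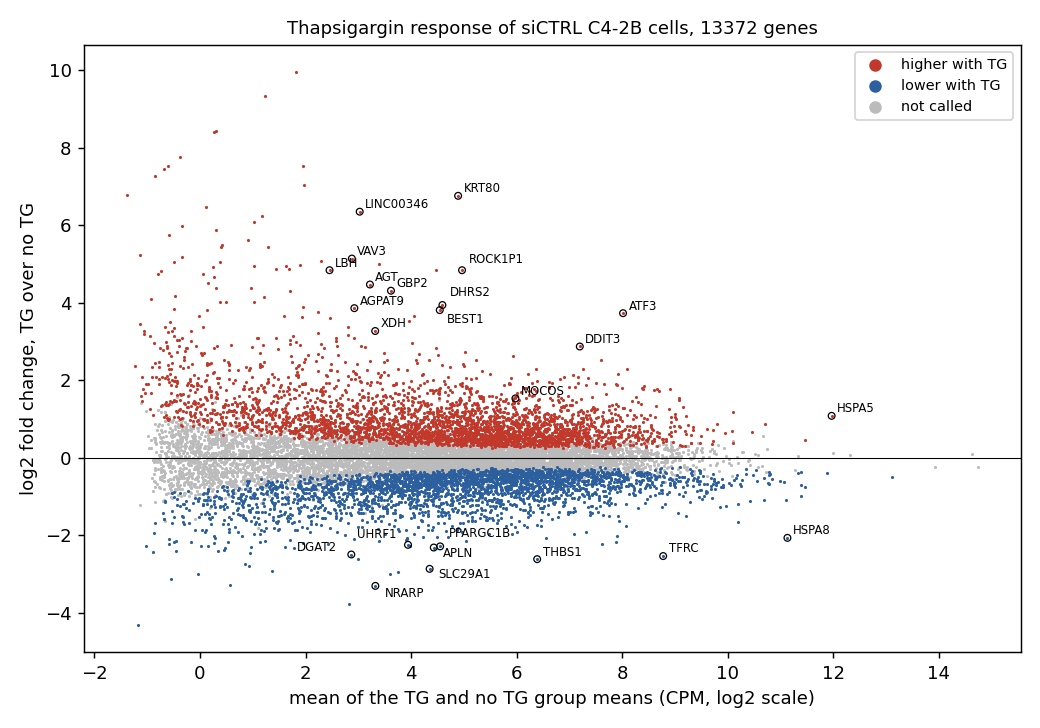
Log2 fold change of TG over no TG in siCTRL C4-2B cells (vertical axis) against the mean of the group levels on a log2 scale of CPM (horizontal axis), one point per tested gene. Red points are the 3331 genes called higher, blue points the 2854 called lower and grey points the rest, and circles mark genes named in the text. KRT80 is the highest point and NRARP the lowest of those labelled, and HSPA5 and HSPA8 changed in opposite directions.

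The genes with the greatest rises, among called genes of at least 5 CPM on average, had low levels without TG, at most 3.71 CPM in any untreated library. KRT80, a type II keratin of the epithelial cytoskeleton (chromosome 12, 52168996 to 52192014, GRCh38.p14), had 63.2, 61.3, 51.8 and 58.8 CPM with TG, against 0.719, 0.52, 0.337 and 0.53 CPM without, a log2 change of 6.76 (SE 0.195, adjusted p = 1.43e-08). LINC00346, a noncoding RNA, had 13.1 to 20.8 CPM with TG, against 0.0673 to 0.379 CPM without (log2 6.35, SE 0.346). VAV3, an exchange factor for small GTPases, had 13.2 to 15.4 CPM with TG and 0.227 to 0.52 CPM without (log2 5.14, SE 0.226). The other 9 of the 12 rose by 3.81 to 4.99 on the log2 scale. They include LBH, LAMP3 of the lysosomal membrane, AGT (angiotensinogen), the guanylate-binding protein GBP2, the dehydrogenase DHRS2, the chloride channel BEST1 and AGPAT9, an acyltransferase of glycerolipid synthesis. They also include LOC101929333 and ROCK1P1, a pseudogene whose reads may be shared with its parent gene, so that its level is uncertain. None of these 12 had a TG library at or below an untreated library, which the rule for choosing them required.

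The greatest falls were smaller in size and included genes of cell-cell signalling and nutrient uptake. NRARP, a feedback inhibitor of Notch signalling, had 1.47, 2.23, 1.91 and 1.65 CPM with TG, against 16.1, 18.3, 18.9 and 19.5 CPM without, a log2 change of -3.31 (SE 0.17, adjusted p = 4.77e-07). The Wnt ligand WNT7B had 2.7 ± 1.12 CPM with TG and 21.7 ± 6.64 CPM without (SD, n = 4 each; log2 -3.01, SE 0.306). SLC29A1, an equilibrative nucleoside transporter, had 4.6 to 5.23 CPM with TG, against 30.7 to 41.2 CPM without (log2 -2.87, SE 0.138). TFRC, the receptor that takes up transferrin iron, had 118, 116, 153 and 126 CPM with TG, against 808, 864, 693 and 626 CPM without, a log2 change of -2.54 (SE 0.142, adjusted p = 7.39e-07). THBS1, a secreted matrix glycoprotein, had 22.3 to 25.3 CPM with TG and 128 to 165 CPM without (log2 -2.62, SE 0.116). The remaining 7 were the endogenous retroviral gene ERVMER34-1, LRFN1, the triglyceride enzyme DGAT2, the peptide hormone APLN, the coactivator PPARGC1B, the transcription factor TFAP4 and UHRF1, which maintains DNA methylation after replication. Their log2 changes lay between -2.95 and -2.25.

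Most UPR sensors and their transcription factors rose. Of 25 tested members, 16 (64%) were called higher and 2 (8%) lower, with a median log2 change of 0.79. Genes named from this and the following lists are mainly those with the smallest adjusted p of their list; the others were picked after their values were seen. Counts of 3 or fewer members in a direction often moved when single libraries were left out, and nothing is drawn from them. ERN1, which encodes IRE1, had 123, 139, 137 and 134 CPM with TG, against 29.5, 38.5, 36.2 and 32.2 CPM without (log2 1.97, SE 0.114, adjusted p = 9.04e-07). EIF2AK3, which encodes PERK, had 97.8 to 117 CPM with TG and 49 to 63.9 CPM without (log2 1.07, SE 0.121). ATF6 had 137 to 140 CPM with TG and 56.6 to 69.6 CPM without (log2 1.11, SE 0.098). The mRNAs of all 3 sensors were higher in every treated library than in any untreated one. The level of XBP1 mRNA, the substrate of IRE1, was 169, 184, 124 and 160 CPM with TG, against 73.3, 60.5, 65.7 and 71.8 CPM without (log2 1.23, SE 0.134, adjusted p = 3.44e-05). Gene-level counts do not separate its spliced from its unspliced form.

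ATF3, a stress-induced bZIP factor, had 487, 566, 424 and 448 CPM with TG, against 41.3, 28.9, 36.5 and 38.5 CPM without (log2 3.73, SE 0.15, adjusted p = 1.94e-07). DDIT3, which encodes CHOP, had 291, 295, 182 and 262 CPM with TG, against 42, 19.5, 37 and 42 CPM without (log2 2.87, SE 0.245, adjusted p = 7.4e-06). TG replicate 3 was the lowest treated library for DDIT3 and untreated replicate 2 the lowest untreated one, and the groups did not overlap. NFIL3, another bZIP factor, had 56.7 ± 3.68 CPM with TG and 8.53 ± 1.81 CPM without (log2 2.73, SE 0.156). CEBPG, a partner of ATF4, rose by 1.87 (SE 0.111) and CEBPB by 1.57 (SE 0.174). The rise of ATF4 itself, whose control is largely translational, was small and uneven. It had 870, 814, 533 and 643 CPM with TG, against 444, 314, 507 and 589 CPM without, so that the groups overlapped (log2 0.62, SE 0.203, adjusted p = 0.0264). Its call was lost without untreated replicate 1 (adjusted p = 0.0653), TG replicate 1 (0.0825) or TG replicate 2 (0.0681). ATF5, a related factor, fell to 33.4 ± 2.66 CPM with TG, against 56.6 ± 7.57 CPM without (log2 -0.76, SE 0.125). Its change was -0.41 (adjusted p = 0.0633) with the replicate number as a block and the trends with length and GC content taken out.

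**Figure D2:**
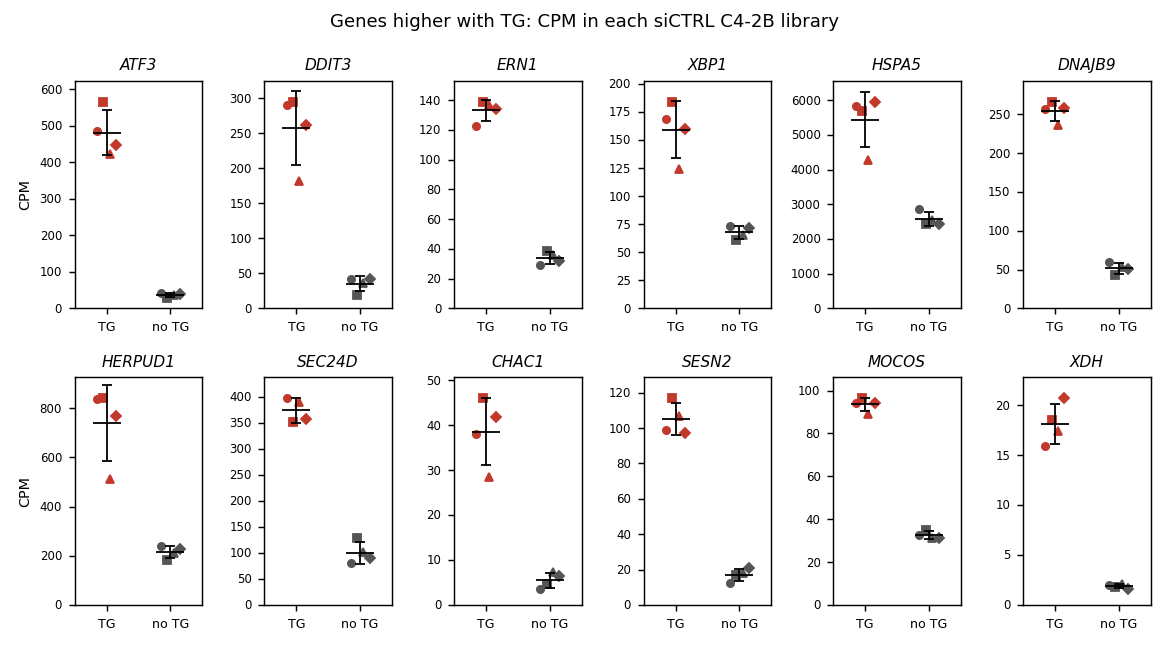
Level in CPM (vertical axes, each starting at 0) of 12 genes called higher, in the 4 TG libraries (red, left) and the 4 libraries without TG (grey, right). Circles, squares, triangles and diamonds are replicates 1, 2, 3 and 4, and bars give the mean and SD of each group. The treated libraries lie above the untreated ones for all 12 genes, and TG replicate 3 is the lowest treated library for DDIT3, XBP1, HSPA5, HERPUD1 and CHAC1.

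ER chaperones rose in part. Of 25 tested, 11 (44%) were called higher and 0 lower, with a median log2 change of 0.26. HSPA5, which encodes BiP, the Hsp70 of the ER and the repressor of all 3 sensors, had 5836, 5678, 4270 and 5952 CPM with TG, against 2869, 2421, 2555 and 2432 CPM without (log2 1.08, SE 0.131, adjusted p = 7.54e-05). TG replicate 3 was the lowest treated library, and all 4 treated libraries lay above the untreated ones. Its J-domain cochaperone DNAJB9 had 256, 266, 236 and 258 CPM with TG, against 59.3, 42.8, 53.3 and 50.7 CPM without, the greatest rise of the list (log2 2.30, SE 0.12, adjusted p = 4.87e-07). FKBP14, a collagen prolyl isomerase, had 126 ± 18.1 CPM with TG and 38.4 ± 4.72 CPM without (log2 1.71, SE 0.136). HYOU1, the exchange factor of BiP, had 2335, 2457, 1547 and 2298 CPM with TG, against 1133, 1001, 1300 and 1244 CPM without (log2 0.88, SE 0.155). HSP90B1, the Hsp90 of the ER, had 3369, 3326, 2777 and 3563 CPM with TG, against 2581, 2092, 2555 and 2248 CPM without, a smaller rise (log2 0.46, SE 0.12, adjusted p = 0.00928). The lectin chaperones, which fold glycoproteins, were not called: CALR had 4275 ± 671 CPM with TG and 3920 ± 249 CPM without (log2 0.13, SE 0.13), and CANX had 1309 ± 149 CPM with TG and 1184 ± 156 CPM without (log2 0.14, SE 0.127). With the trends of each library with gene length and GC content taken out, CALR passed the threshold at a log2 change of 0.25 (adjusted p = 0.0456).

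The promoters of 5 raised genes are shown for the letters that UPR factors are known to bind. Each runs 5′ to 3′ on the strand of its gene, 250 bases before and 50 bases after the RefSeq start site, in the build GRCh38.p14. Capitals mark the fixed letters of motif matches. HSPA5 (chr9:125241294-125241593, minus strand) and HSP90B1 (chr12:103930160-103930459, plus strand) hold ERSE, the ER stress element, defined here as CCAAT and CCACG 9 bases apart on either strand. HYOU1 (chr11:119057156-119057455, minus strand) holds ERSE-II, ATTGG and CCACG 1 base apart, at 2 places on its opposite strand. HERPUD1 (chr16:56931892-56932191, plus strand) holds ERSE-II and, upstream of it, the core of the C/EBP-ATF element, TGATGNAA, read on the opposite strand, where the free base is left in lower case. CHAC1 (chr15:40953221-40953520, plus strand) holds the C/EBP-ATF core alone of the 4 motifs searched.
HSPA5: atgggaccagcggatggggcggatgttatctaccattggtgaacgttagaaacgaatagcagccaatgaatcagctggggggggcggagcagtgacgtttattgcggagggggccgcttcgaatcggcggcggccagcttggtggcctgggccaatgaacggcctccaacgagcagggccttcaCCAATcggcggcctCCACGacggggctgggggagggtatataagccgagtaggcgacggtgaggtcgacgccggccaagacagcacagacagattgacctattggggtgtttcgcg
HSP90B1: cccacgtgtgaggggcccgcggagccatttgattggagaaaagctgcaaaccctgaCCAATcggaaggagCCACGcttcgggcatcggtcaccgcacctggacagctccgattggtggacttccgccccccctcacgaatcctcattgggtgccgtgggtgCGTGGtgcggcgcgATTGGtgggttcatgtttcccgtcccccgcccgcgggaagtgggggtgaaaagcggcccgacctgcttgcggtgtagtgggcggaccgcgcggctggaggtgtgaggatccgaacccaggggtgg
HYOU1: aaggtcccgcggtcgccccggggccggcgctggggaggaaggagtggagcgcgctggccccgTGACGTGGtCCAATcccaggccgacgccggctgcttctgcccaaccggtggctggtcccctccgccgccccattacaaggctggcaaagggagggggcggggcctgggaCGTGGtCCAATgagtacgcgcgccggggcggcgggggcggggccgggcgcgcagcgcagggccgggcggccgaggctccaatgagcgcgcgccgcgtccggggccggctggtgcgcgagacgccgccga
HERPUD1: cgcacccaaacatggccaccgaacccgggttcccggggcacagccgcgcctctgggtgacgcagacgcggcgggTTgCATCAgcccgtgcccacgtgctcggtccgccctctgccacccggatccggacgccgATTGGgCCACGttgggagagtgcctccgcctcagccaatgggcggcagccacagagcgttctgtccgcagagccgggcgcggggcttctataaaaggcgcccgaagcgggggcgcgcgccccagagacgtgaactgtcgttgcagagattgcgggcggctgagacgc
CHAC1: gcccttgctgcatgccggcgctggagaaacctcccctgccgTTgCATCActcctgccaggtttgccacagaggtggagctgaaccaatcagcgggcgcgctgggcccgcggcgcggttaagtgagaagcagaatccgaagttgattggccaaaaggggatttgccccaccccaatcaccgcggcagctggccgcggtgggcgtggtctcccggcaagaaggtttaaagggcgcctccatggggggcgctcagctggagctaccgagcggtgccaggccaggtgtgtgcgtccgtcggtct

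Positions of the first base are counted from the start site. In HSPA5 the ERSE begins at -66. In HSP90B1 matches begin at -194 and -89, on opposite strands. In HYOU1 the ERSE-II matches begin at -185 and -79, and the outer overlaps a UPR element core, TGACGTGG, which begins at -188. In HERPUD1 the ERSE-II begins at -117 and the C/EBP-ATF core at -176, and in CHAC1 the C/EBP-ATF core begins at -209. A promoter was given for 7301 of the tested genes (54.6%). ERSE was in 0.447% (8) of the promoters of genes called higher and 0% of those called lower. It was in 0.192% of all tested genes and 0.0859% of all 22114 promoters. ERSE-II was in 0.279% (5) of the promoters of genes called higher, 0.125% of those called lower and 0.137% of all tested genes. For the UPR element core the shares were 1.79% of genes called higher, 0.499% of those called lower and 0.972% of all tested genes. For the C/EBP-ATF core they were 2.29%, 1.43% and 1.41% in the same order, and 3.85% of all promoters. Of the 24 tested genes with ERSE or ERSE-II letters, 13 (54.2%) were called higher and 2 (8.33%) lower. The 7301 tested genes with a promoter, from which these 24 come, held 1790 called higher and 1603 called lower. Over all tested genes, with or without a promoter, the shares were 24.9% and 21.3%. A match describes letters in a window and is no measure of binding.

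ER-associated degradation (ERAD), which pulls misfolded protein out of the ER for the proteasome, rose at several of its steps. Of 39 tested members, 19 (48.7%) were called higher and 4 (10.3%) lower, with a median of 0.30. HERPUD1, which organises the ubiquitin ligase complex, had 838, 841, 512 and 767 CPM with TG, against 241, 181, 209 and 227 CPM without (log2 1.78, SE 0.167, adjusted p = 1.34e-05). SEL1L, the scaffold of that ligase, had 735, 734, 918 and 866 CPM with TG, against 361, 402, 291 and 262 CPM without (log2 1.31, SE 0.151). EDEM2, which trims mannose from proteins bound for degradation, had 55.2 ± 1.78 CPM with TG and 22.9 ± 4.33 CPM without (log2 1.27, SE 0.141). The ligase SYVN1 itself rose by 0.88 (SE 0.166) and the membrane protein SELK (now SELENOK) by 1.36 (SE 0.216). UBE2G2, a ubiquitin-conjugating enzyme of ERAD, went the other way, with 29.3 to 37.3 CPM with TG and 56.9 to 76.6 CPM without (log2 -1.06, SE 0.138).

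The enzymes of disulfide formation moved unevenly. Of 25 ER oxidoreductases tested, 11 (44%) were called higher and 3 (12%) lower, with a median of 0.10. ERO1LB, an oxidase of protein disulfide isomerase, had 74.2, 67.6, 73.3 and 75.5 CPM with TG, against 28.6, 27.5, 21.2 and 21.1 CPM without (log2 1.56, SE 0.129). The peroxidase GPX8 rose by 1.05 (SE 0.0989). The sulfhydryl oxidase QSOX2 fell by 0.92 (SE 0.122).

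Genes of export from the ER were raised widely. Of 42 tested genes of the COPII and COPI coats and their cargo receptors, which carry protein between the ER and the Golgi, 28 (66.7%) were called higher and 0 lower, with a median of 0.57. SEC24D, a cargo-binding subunit of COPII, had 397, 351, 390 and 356 CPM with TG, against 79.5, 129, 101 and 90.4 CPM without (log2 1.90, SE 0.148, adjusted p = 4.61e-06). SEC23B, which pairs with SEC24 proteins, had 409 ± 13.9 CPM with TG and 192 ± 13.8 CPM without (log2 1.09, SE 0.0971). The cargo receptor MCFD2 had 232 to 266 CPM with TG and 106 to 114 CPM without (log2 1.17, SE 0.0952). SEC24A, a paralogue of SEC24D, rose by 1.06. Summed over the list, the level was 11832 to 12223 CPM with TG and 7760 to 8590 CPM without.

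Of 28 genes of translocation and signal peptide processing, 11 (39.3%) were called higher and 1 (3.57%) lower, with a median of -0.08. Among the genes called higher, 6 belong to the signal recognition particle or its receptor. SRPR, the receptor subunit, had 391, 425, 294 and 371 CPM with TG, against 156, 130, 167 and 164 CPM without (log2 1.27, SE 0.136), and SRP19 rose by 1.08 (SE 0.148). SEC61A1, the channel itself, had 931 ± 82.1 CPM with TG and 723 ± 116 CPM without, with overlapping groups (log2 0.36, SE 0.129, adjusted p = 0.0378). That call was lost when any library but untreated replicate 2 was left out, with adjusted p from 0.0512 to 0.106. WRB, the receptor for tail-anchored proteins, was the member called lower (log2 -0.95, SE 0.237).

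Of 43 genes of N-glycosylation and hexosamine synthesis, 10 (23.3%) were called higher and 8 (18.6%) lower, close to the background shares. Without untreated replicate 2 and TG replicate 3 the count higher was 16, and the count lower was 5 without untreated replicate 4 or without TG replicate 1. GFPT1, the rate-limiting enzyme of the hexosamine route, had 504, 447, 529 and 533 CPM with TG, against 240, 268, 217 and 208 CPM without (log2 1.11, SE 0.115), and PGM3 of the same route rose by 1.19 (SE 0.115). DOLK, which makes the lipid carrier of the glycan, had 11.6 to 16 CPM with TG and 27.8 to 41.9 CPM without (log2 -1.42, SE 0.16).

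The effectors of ATF4 and CHOP had the highest share of raised genes among the lists with 10 or more tested members. Of 33 tested, 24 (72.7%) were called higher and 1 (3.03%) lower, with a median of 1.40. SESN2, a sestrin that restrains mTORC1, had 98.8, 117, 107 and 97.1 CPM with TG, against 12.6, 16.7, 18.1 and 20.8 CPM without (log2 2.63, SE 0.155, adjusted p = 9.12e-07). CTH, the cystathionine lyase that makes cysteine, had 130, 138, 108 and 123 CPM with TG, against 31.9, 33.6, 31.5 and 33.1 CPM without (log2 1.94, SE 0.108). CHAC1, which degrades glutathione, had 38, 46, 28.5 and 41.7 CPM with TG, against 3.6, 4.59, 7.34 and 6.44 CPM without (log2 2.82, SE 0.234). The pseudokinase TRIB3 rose by 2.29 (SE 0.166) and DDIT4, another brake on mTORC1, by 1.74 (SE 0.144). Secreted stress factors rose with them. VEGFA had 503, 506, 316 and 497 CPM with TG, against 87.9, 73.6, 101 and 108 CPM without (log2 2.30, SE 0.179), and the hormone FGF21 had 6.04 to 13.5 CPM with TG, against 0.498 to 1.59 CPM without (log2 3.61, SE 0.366). INHBE, an activin subunit, had 5.58 ± 1 CPM with TG and 0.445 ± 0.122 CPM without (log2 3.65, SE 0.27).

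Of 24 cytosolic aminoacyl-tRNA synthetase genes, 11 (45.8%) were called higher and 2 (8.33%) lower. GARS, which charges glycine tRNA, had 606, 589, 528 and 567 CPM with TG, against 248, 218, 218 and 224 CPM without (log2 1.33, SE 0.0994, adjusted p = 3.55e-06). CARS rose by 1.35 (SE 0.105) and YARS by 1.04 (SE 0.0989). None of the 17 mitochondrial synthetases was called higher and 5 (29.4%) were called lower, led by MARS2 with 8.52 to 9.87 CPM with TG, against 22.6 to 24.8 CPM without (log2 -1.43, SE 0.118). Of 32 enzymes of amino acid and one-carbon synthesis, 13 (40.6%) were called higher and 6 (18.8%) lower, the second count being 3 without TG replicate 1. ASNS, asparagine synthetase, had 560, 586, 347 and 570 CPM with TG, against 164, 118, 156 and 157 CPM without (log2 1.79, SE 0.177). In the serine route, PSAT1 rose by 1.27 (SE 0.133) and PSPH by 1.42 (SE 0.11), while PHGDH, the first enzyme, had 624 ± 81.1 CPM with TG and 585 ± 92.3 CPM without (log2 0.09, SE 0.14) and was not called. BCAT1, a branched-chain transaminase, had 210, 187, 280 and 227 CPM with TG, against 61.3, 72, 53.7 and 52.6 CPM without (log2 1.92, SE 0.152).

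Among amino acid transporters, 11 of 23 (47.8%) were called higher and 5 (21.7%) lower, the second share near the background. SLC1A4, a carrier of neutral amino acids, had 52.2, 60.4, 68.3 and 51.3 CPM with TG, against 16, 20.1, 16.5 and 17.8 CPM without (log2 1.72, SE 0.134), and the glycine carrier SLC6A9 had 97.1 to 135 CPM with TG and 27.2 to 43.5 CPM without (log2 1.78, SE 0.161). SLC7A11, which imports cystine, had 363, 435, 913 and 410 CPM with TG, against 125, 262, 106 and 97.2 CPM without (log2 1.85, SE 0.365). TG replicate 3 was the highest treated library and untreated replicate 2 the highest untreated one, the libraries that stood apart. SLC7A8, an exchanger of neutral amino acids, had 123 to 131 CPM with TG and 213 to 266 CPM without (log2 -0.99, SE 0.105).

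The drug's own target was not called. ATP2A2, which encodes SERCA2, had 908, 946, 749 and 980 CPM with TG, against 825, 641, 849 and 738 CPM without, with overlapping groups (log2 0.23, SE 0.127, adjusted p = 0.158). Without untreated replicate 2 and TG replicate 3 its adjusted p was 0.0496 at the same log2 change. Of 43 genes of calcium handling, 10 (23.3%) were called higher and 9 (20.9%) lower, shares near the background, and the count lower ranged from 4 to 12 over the alternatives. It was 5 without untreated replicate 3, 5 without TG replicate 1 and 4 without TG replicate 4. ATP2B1, a calcium pump of the plasma membrane, had 445, 430, 521 and 460 CPM with TG, against 187, 188, 157 and 146 CPM without (log2 1.45, SE 0.121). STC2, a secreted stanniocalcin, had 443, 471, 502 and 466 CPM with TG, against 180, 179, 181 and 184 CPM without (log2 1.38, SE 0.0925, adjusted p = 1.75e-06). CALM2, a calmodulin gene, fell by 0.60 (SE 0.113).

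The gene that the series knocks down, MOCOS, was raised by TG in the control cells. MOCOS (chromosome 18, 36187497 to 36272157, GRCh38.p14) sulfurates the molybdenum cofactor of xanthine dehydrogenase. It had 94.3, 96.5, 89 and 94.3 CPM with TG, against 32.5, 35, 31 and 31.1 CPM without, with little spread in either group (log2 1.53, SE 0.0964, adjusted p = 1.2e-06). XDH (chromosome 2, 31334321 to 31414742), which makes uric acid from xanthine, had 15.9, 18.5, 17.4 and 20.7 CPM with TG, against 1.99, 1.82, 2.09 and 1.59 CPM without (log2 3.27, SE 0.164, adjusted p = 3.97e-07). AOX1, the other enzyme that uses the sulfurated cofactor, was under the count filter, with means of 0.542 CPM with TG and 0.113 CPM without. Of 18 tested genes of purine catabolism and molybdenum enzymes, 3 were called higher (MOCOS, XDH and the nucleotidase NT5C2) and 4 (22.2%) lower. PNP, the phosphorylase upstream of XDH, had 29.9, 33.4, 28.5 and 34.2 CPM with TG, against 70.2, 57.6, 80.5 and 81 CPM without (log2 -1.20, SE 0.132). SUOX, sulfite oxidase, which uses the cofactor without sulfuration, had 30.2 ± 3.3 CPM with TG and 66.9 ± 8.02 CPM without (log2 -1.15, SE 0.127). Of 30 genes of purine and pyrimidine synthesis, 11 (36.7%) were called lower, led by the uridine kinase UCK2 (log2 -0.92, SE 0.0909), and 1 was called higher. The count lower was 18 without untreated replicate 2 and TG replicate 3.

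Androgen-induced genes fell widely. Of 33 tested, 24 (72.7%) were called lower and 4 (12.1%) higher, with a median of -0.71. TMPRSS2, a serine protease of the luminal surface, had 89.2, 102, 98.3 and 90.1 CPM with TG, against 378, 374, 378 and 394 CPM without (log2 -2.01, SE 0.0971, adjusted p = 3.53e-07). KLK3, which encodes PSA, had 41.8, 49.4, 31.5 and 38 CPM with TG, against 103, 82, 133 and 131 CPM without (log2 -1.48, SE 0.182). MAF, a transcription factor induced by androgen, had 23.2 ± 3.03 CPM with TG and 70.3 ± 3.33 CPM without (log2 -1.60, SE 0.12), and PMEPA1, a feedback inhibitor of TGF-beta signalling, 22 ± 1.85 CPM with TG and 63.4 ± 7.38 CPM without (log2 -1.52, SE 0.121). ACPP, prostatic acid phosphatase, ran against the list, with 44.1, 46.8, 53.8 and 41.1 CPM with TG, against 20.5, 18.6, 17.6 and 17.7 CPM without (log2 1.32, SE 0.122). TSC22D3, which glucocorticoids also induce, rose by 1.59 (SE 0.158).

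Among the regulators of the luminal state, 8 of 19 tested (42.1%) were called higher and 6 (31.6%) lower. The count higher was 5 without untreated replicate 3 and 5 without untreated replicate 4. The homeobox factor HOXB13 had 124 ± 11.4 CPM with TG and 255 ± 45.4 CPM without (log2 -1.04, SE 0.143), and the pioneer factor FOXA1 265 ± 24.7 CPM with TG and 397 ± 57.8 CPM without (log2 -0.58, SE 0.125). GRHL1, a grainyhead factor of epithelia, had 49.1 to 56 CPM with TG, against 19.1 to 22 CPM without (log2 1.38, SE 0.106). NR3C1, the glucocorticoid receptor, had 4.2, 4.19, 4.59 and 5.31 CPM with TG, against 1.66, 1.56, 1.14 and 1.21 CPM without (log2 1.71, SE 0.205). Of the 14 luminal markers, 9 (64.3%) were called lower and 1 (7.14%), ACPP, higher, with a median of -1.19.

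**Figure D3:**
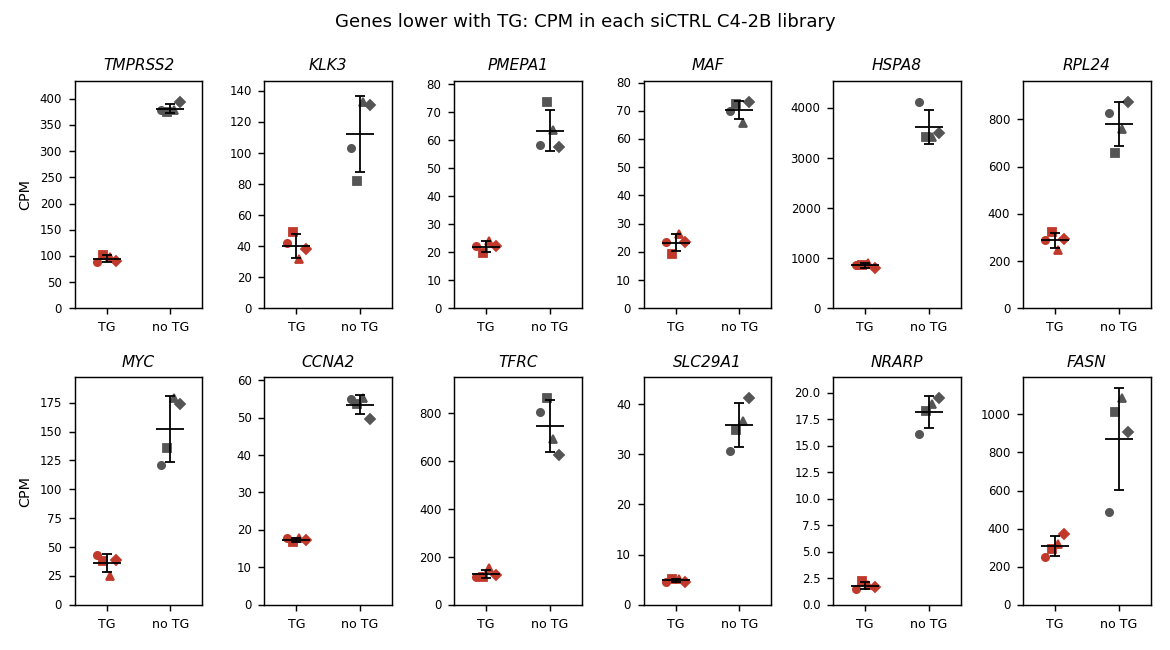
Level in CPM (vertical axes, each starting at 0) of 12 genes called lower, in the 4 TG libraries (red, left) and the 4 libraries without TG (grey, right). Circles, squares, triangles and diamonds are replicates 1, 2, 3 and 4, and bars give the mean and SD of each group. The treated libraries lie below the untreated ones in every panel.

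Many cytosolic chaperones fell. Of 32 tested heat shock genes, 17 (53.1%) were called lower and 2 (6.25%) higher, with a median of -0.40. The list also holds the mitochondrial HSPE1 and HSPD1, described below, and HSPE1 is among those called lower. HSPA8, the constitutive Hsp70, had 867, 874, 913 and 798 CPM with TG, against 4125, 3415, 3430 and 3497 CPM without (log2 -2.07, SE 0.111, adjusted p = 5.76e-07). HSPA1B, a stress-inducible Hsp70 with a near-identical copy in HSPA1A that could share its reads, had 55.5 ± 8.07 CPM with TG and 217 ± 42.8 CPM without (log2 -1.97, SE 0.162). DNAJB1, their J-domain partner, fell by 1.09 (SE 0.111), and HSP90AA1 had 1687, 1580, 2061 and 1923 CPM with TG, against 3913, 4033, 3301 and 3049 CPM without (log2 -0.98, SE 0.133). Within mitochondria the chaperonin pair split: HSPE1 had 252 ± 30.4 CPM with TG and 607 ± 104 CPM without (log2 -1.27, SE 0.146), and HSPD1 had 1329 ± 32.3 CPM with TG and 1374 ± 13.8 CPM without (log2 -0.05, SE 0.0903), not called. HSPA9, the mitochondrial Hsp70, rose by 0.68 (SE 0.097). Of 8 subunits of the CCT chaperonin, 4 were called lower and 0 higher. That count was 7 without untreated replicate 2, and 2 without untreated replicate 1, 3 or 4 or TG replicate 2 or 3. CCT3 was the member with the smallest adjusted p (log2 -0.54, SE 0.0901). Of 33 proteasome genes, 7 (21.2%) were called lower, near the background share, and 1 (3.03%) higher, below it, and the count lower ran from 2 to 11 over the alternatives. It was 3 without untreated replicate 1 or TG replicate 1, and 2 without untreated replicate 3 or 4 or TG replicate 3 or 4.

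Most genes of cytosolic ribosomal proteins fell. Of 75 tested, 56 (74.7%) were called lower and 0 higher, with a median of -0.70. RPL24, of the large subunit, had 289, 322, 248 and 293 CPM with TG, against 827, 657, 759 and 874 CPM without (log2 -1.44, SE 0.125, adjusted p = 8.59e-06). RPL23 had 503 ± 45.9 CPM with TG and 1000 ± 109 CPM without (log2 -0.99, SE 0.118), and RPL7A 598 ± 76.8 CPM with TG and 1409 ± 243 CPM without (log2 -1.24, SE 0.147). The list took 2.58 to 4.02% of the counts with TG, against 4.02 to 6.35% without. Ribosomal protein genes have many processed pseudogenes, so single members carry some uncertainty. They are also short, and the libraries differed in their trend with length; with that trend and GC content taken out, 55 were called lower. Of 41 initiation and elongation factors, 15 (36.6%) were called lower and 5 (12.2%) higher. EIF4A1, the helicase of initiation, had 715 ± 20.9 CPM with TG and 1214 ± 115 CPM without (log2 -0.76, SE 0.104). EIF2B3, of the exchange factor that eIF2alpha phosphorylation inhibits, rose by 0.70 (SE 0.106).

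Of 48 nucleolar genes, 20 (41.7%) were called lower and 5 (10.4%) higher, the second count being 1 to 3 without untreated replicate 3 or 4 or any TG replicate. RRS1, an assembly factor of the large subunit, had 40.7 to 44.6 CPM with TG and 83.2 to 99.1 CPM without (log2 -1.05, SE 0.099). Of 42 nuclear genes of oxidative phosphorylation, 22 (52.4%) were called lower and 0 higher, with a median of -0.59. NDUFB3, of complex I, had 47.5, 50.6, 35.9 and 41.4 CPM with TG, against 128, 90.5, 113 and 127 CPM without (log2 -1.39, SE 0.147), and ATP5G1, of the ATP synthase ring, had 30.5 ± 6.55 CPM with TG and 88.6 ± 13.6 CPM without (log2 -1.54, SE 0.167). The count depended on single libraries: it was 34 without untreated replicate 2, 13 without untreated replicate 3 and 14 without untreated replicate 4. Of 53 mitochondrial ribosomal proteins, 12 (22.6%) were called lower, a share near the background that ran from 4 to 22 genes over the alternatives. It was 21 without untreated replicate 2 and 5 without untreated replicate 3 or 4.

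Host transcripts of small nucleolar RNAs, many of them spliced noncoding RNAs that are degraded when translated, were raised in part. Of 17 tested, 10 (58.8%) were called higher and 4 (23.5%) lower, with a median of 0.95. SNHG5 had 10.3, 13.2, 7.38 and 11.4 CPM with TG, against 1.49, 0.866, 2.02 and 2.27 CPM without (log2 2.66, SE 0.279). GAS5 had 98.2, 99.8, 77 and 83.9 CPM with TG, against 33.5, 21.3, 36 and 39.9 CPM without (log2 1.46, SE 0.179), and TAF1D, a protein-coding host, rose by 1.73 (SE 0.124). SNHG16 fell, with 51.6 ± 9.81 CPM with TG and 141 ± 11.2 CPM without (log2 -1.45, SE 0.138).

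**Figure D4:**
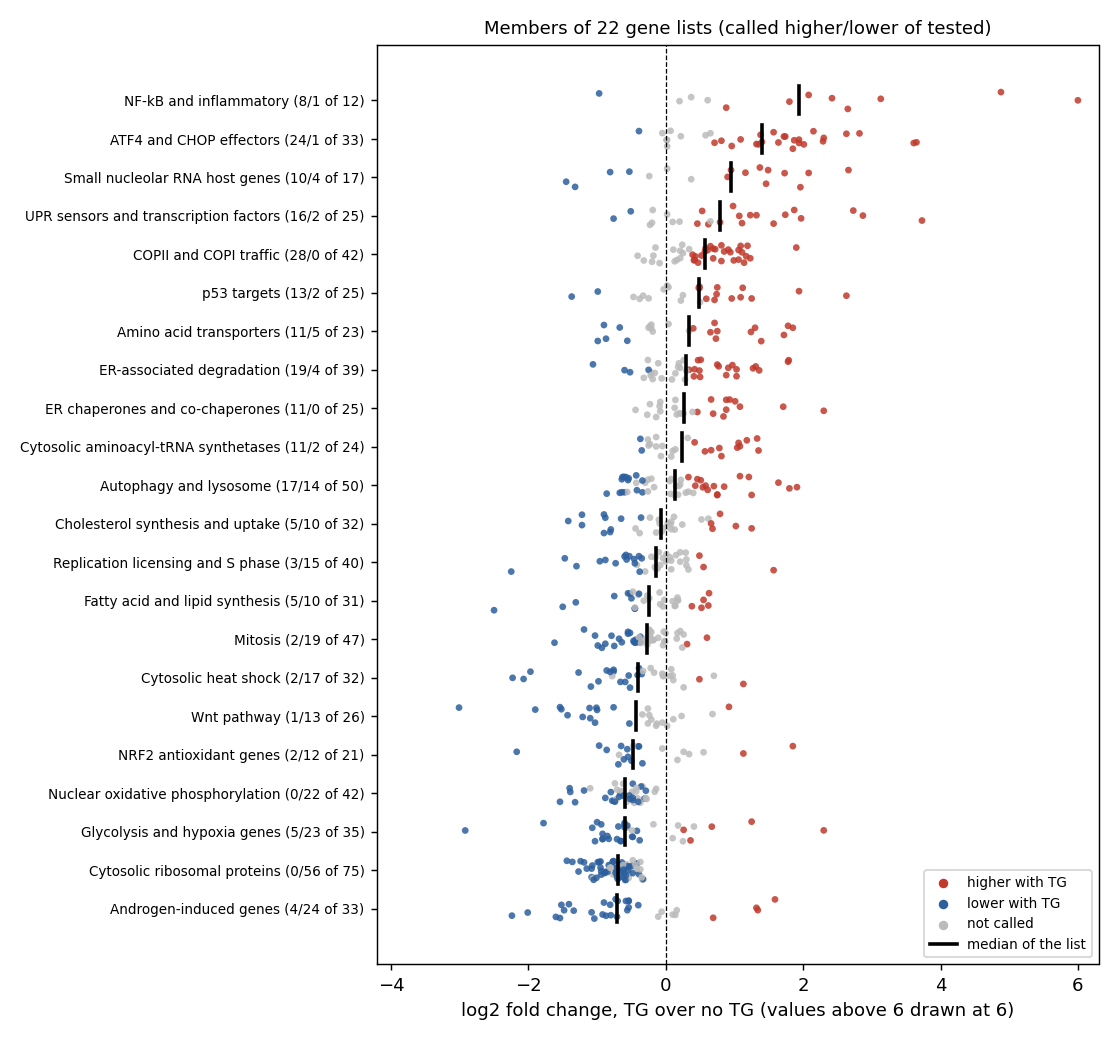
Log2 fold change of TG over no TG (horizontal axis) of every tested member of 22 of the 54 gene lists, one row per list, ordered by the list median (black bar). Red members were called higher, blue lower and grey neither, the numbers beside each name give members called higher and lower of those tested, and values above 6 are drawn at 6. Lists of UPR effectors and ER export lie to the right of 0 and those of androgen-induced genes, ribosomal proteins, glycolysis and oxidative phosphorylation to the left.

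Cell cycle genes fell in part. Of 40 genes of replication licensing and S phase, 15 (37.5%) were called lower and 3 (7.5%) higher. UHRF1 had 5.4, 5.32, 5.83 and 4.72 CPM with TG, against 20, 27.5, 26.7 and 27.3 CPM without (log2 -2.25, SE 0.151), and PCNA, the sliding clamp, 50.2 ± 10.1 CPM with TG and 124 ± 23.4 CPM without (log2 -1.30, SE 0.178). CDC6, the loader of the replicative helicase, rose against them, with 278, 252, 218 and 281 CPM with TG, against 98.8, 79.1, 82.7 and 85.4 CPM without (log2 1.57, SE 0.12, adjusted p = 4.16e-06). Of 47 mitotic genes, 19 (40.4%) were called lower and 2 (4.26%) higher. Cyclin A2 (CCNA2) had 17.8, 16.7, 17.8 and 17.2 CPM with TG, against 55, 53.7, 55.2 and 49.7 CPM without (log2 -1.62, SE 0.102), and the checkpoint kinase BUB1B fell by 1.03 (SE 0.107). The count lower was 29 with the length and GC trends taken out. Of 26 G1 regulators, 10 (38.5%) were called lower and 4 (15.4%) higher, or 7 higher without untreated replicate 2. Cyclin E1 (CCNE1) had 5.28 ± 0.777 CPM with TG and 15.4 ± 1.26 CPM without (log2 -1.55, SE 0.15). CDKN1A, which encodes the CDK inhibitor p21, had 176, 186, 130 and 154 CPM with TG, against 31.8, 47.1, 44.9 and 44.5 CPM without (log2 1.94, SE 0.157).

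Of 25 p53 targets, 13 (52%) were called higher and 2 (8%) lower, with SESN2 and CDKN1A counted among them. MDM2, the ligase of p53, had 361, 326, 433 and 367 CPM with TG, against 200, 192, 165 and 143 CPM without (log2 1.09, SE 0.135). SESN2 also stands in the ATF4 list, so that the lists share members. Among genes of the BCL2 family and caspases, 9 of 33 (27.3%) were called higher and 7 (21.2%) lower, close to the background shares. PMAIP1, which encodes the BH3-only protein NOXA, had 37, 35.3, 24.2 and 39.4 CPM with TG, against 10.5, 5.8, 8.96 and 8.33 CPM without (log2 2.01, SE 0.205), and BIRC3, an inhibitor of apoptosis induced by NF-kB, had 34.1, 35.8, 48.8 and 39.1 CPM with TG, against 7.69, 6.32, 5.72 and 5.23 CPM without (log2 2.65, SE 0.17).

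Only 12 of 28 NF-kB and inflammatory genes passed the count filter, and 12 of the 28 were at 0 in all untreated libraries. A gene off in untreated cells could pass only by being high with TG, so the 8 called higher, or 4 among genes of at least 5 CPM on average, and the median of 1.94 are no support for a rise of the list. NFKB2, a subunit of the noncanonical pathway, had 53.4, 61.8, 50.7 and 53.2 CPM with TG, against 13.8, 14.3, 18 and 16.7 CPM without (log2 1.8, SE 0.129). RELB, its partner, had 6, 6.92, 8.88 and 3.27 CPM with TG, against 0.443, 0.173, 0 and 0.151 CPM without (log2 4.88, SE 0.534). TNFRSF9, a costimulatory receptor of the TNF family, had 6.14, 4.5, 4.28 and 3.74 CPM with TG and was at 0 in all 4 untreated libraries. Against 3 counts per library, or 0.214 CPM on average, it was at least 21.8-fold higher. NFKBIA, the inhibitor of the canonical pathway, had 42.8 ± 5.77 CPM with TG and 37.1 ± 3.63 CPM without (log2 0.20, SE 0.129) and was not called. Of 32 interferon response genes, 8 (25%) were called higher, near the background share, and 4 (12.5%) lower, or 2 lower without untreated replicate 4. MX1, an antiviral GTPase, had 7.94 ± 1.85 CPM with TG and 2.42 ± 0.366 CPM without (log2 1.71, SE 0.215), while IFI44 fell by 0.83 (SE 0.156).

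Of 32 tested early response factors, 14 (43.8%) were called higher and 6 (18.8%) lower. MYC had 42.8, 38.1, 25.2 and 38.6 CPM with TG, against 121, 136, 179 and 174 CPM without (log2 -2.08, SE 0.184, adjusted p = 9.49e-06). KLF10, a zinc finger factor induced by TGF-beta, had 123 ± 13.2 CPM with TG and 49.2 ± 5.32 CPM without (log2 1.32, SE 0.12). The orphan receptor NR4A2 had 9.14, 9.69, 9.14 and 8.62 CPM with TG, against 1.77, 2.86, 1.35 and 1.67 CPM without (log2 2.27, SE 0.219), while its paralogue NR4A1 had 9.56 ± 2.37 CPM with TG and 8.36 ± 2.9 CPM without (log2 0.20, SE 0.266) and was not called.

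Of 35 genes of glycolysis and the hypoxia response, 23 (65.7%) were called lower and 5 (14.3%) higher, with a median of -0.60. The count higher was 2 without TG replicate 1. PFKFB3, which makes the activator of phosphofructokinase, had 6.74, 6.64, 10.2 and 8.18 CPM with TG, against 25.8, 29.2, 30.2 and 23.9 CPM without (log2 -1.78, SE 0.166), and hexokinase 2 (HK2) had 49.5 ± 3.41 CPM with TG and 88.1 ± 3.37 CPM without (log2 -0.83, SE 0.0971). VEGFA is the member that rose most. Of 21 NRF2 antioxidant genes, 12 (57.1%) were called lower and 2 (9.52%) higher. PRDX1, a peroxiredoxin, had 84.5, 80.8, 87.3 and 87.6 CPM with TG, against 434, 297, 398 and 406 CPM without (log2 -2.17, SE 0.13, adjusted p = 9.14e-07). SLC7A11, which ATF4 also induces, was a member called higher.

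Of 31 genes of fatty acid and lipid synthesis, 10 (32.3%) were called lower and 5 (16.1%) higher. FASN, fatty acid synthase, had 250, 293, 320 and 374 CPM with TG, against 487, 1013, 1085 and 906 CPM without (log2 -1.5, SE 0.226), with untreated replicate 1 low for its group. The elongase ELOVL6 had 30.9 ± 2.54 CPM with TG and 76.6 ± 8.51 CPM without (log2 -1.31, SE 0.117). DGAT2 had 2.4, 2.41, 2.01 and 1.93 CPM with TG, against 13, 10, 11.7 and 14.8 CPM without (log2 -2.50, SE 0.179). Of 32 genes of cholesterol synthesis and uptake, 10 (31.2%) were called lower and 5 (15.6%) higher. The transcription factor SREBF1 fell by 1.22 (SE 0.156), and STARD4, a sterol carrier, rose by 1.25 (SE 0.115).

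Of 26 genes of the Wnt pathway, 13 (50%) were called lower and 1 (3.85%) higher. Besides WNT7B, the coreceptor LRP5 had 9.94, 11.9, 8.57 and 12.2 CPM with TG, against 27.9, 36.8, 49.4 and 45 CPM without (log2 -1.90, SE 0.193). RNF43, a ligase that removes Wnt receptors and a target of the pathway, had 23.2 ± 2.56 CPM with TG and 53.6 ± 3.57 CPM without (log2 -1.21, SE 0.116). Of 22 Notch genes, 7 (31.8%) were called lower and 4 (18.2%) higher. The target HES1 fell by 0.93 (SE 0.164) beside NRARP, whereas HEY1, another target, rose by 1.72 (SE 0.241). ADAM17, a protease that can cleave the receptor, had 46.5 ± 8.15 CPM with TG and 17.7 ± 2.01 CPM without (log2 1.39, SE 0.15).

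Further groups held genes called in both directions, beside 24.9% higher and 21.3% lower over all tested genes. The shares of splicing factors and metal transport genes were near this background. Of 50 genes of autophagy and the lysosome, 17 (34%) were called higher and 14 (28%) lower. The autophagy receptor OPTN had 40.1, 43.6, 39.7 and 34.1 CPM with TG, against 10.3, 12.3, 9.09 and 10.2 CPM without (log2 1.91, SE 0.136), WIPI1 had 78.9 ± 12.2 CPM with TG and 25.3 ± 1.4 CPM without (log2 1.64, SE 0.131), and the ER-phagy receptor CCPG1 had 328 ± 6.17 CPM with TG and 138 ± 15.8 CPM without (log2 1.25, SE 0.107). The lysosomal membrane protein LAMP2 fell by 0.64 (SE 0.116). Of 44 splicing factors, 9 (20.5%) were called in each direction. HNRNPA1 had 1404 ± 79.6 CPM with TG and 2967 ± 216 CPM without (log2 -1.08, SE 0.104), and the kinase CLK1 rose by 1.32 (SE 0.139). The count of splicing factors higher was 5 without untreated replicate 3 and 4 without TG replicate 1. Of 22 metal transport genes, 6 (27.3%) were called in each direction: the zinc importer SLC39A10 fell by 1.56 (SE 0.153) and SLC39A14 rose by 0.95 (SE 0.11). Of 35 growth factors, receptors and secreted factors, 12 (34.3%) were called higher and 10 (28.6%) lower. INHBB, the activin subunit paralogous to INHBE, had 3.09 ± 0.658 CPM with TG and 9.44 ± 0.697 CPM without (log2 -1.61, SE 0.187).

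BLOC1S1, the mRNA best known as a substrate of IRE1-dependent decay (RIDD), had 9.54, 10.1, 6.87 and 7.59 CPM with TG, against 13.2, 21.6, 29.4 and 34.4 CPM without (log2 -1.53, SE 0.267, adjusted p = 0.000855). Of 11 genes of the RIDD list, 4 (36.4%) were called lower, or 2 without untreated replicate 3, and 2 (18.2%) were called higher. TRIB1, the member with the smallest adjusted p, was among those called higher. Shares over all tested genes were 21.3% lower and 24.9% higher. Of 23 keratins and junction genes, 8 (34.8%) were called lower and 2 (8.7%) higher, KRT80 and LAMA3. The count lower was 3 without untreated replicate 3, 4 without untreated replicate 4, 5 without TG replicate 1 and 3 without TG replicate 4. CLDN4, a claudin of tight junctions, had 42.7, 57.3, 50.9 and 49.7 CPM with TG, against 77.2, 90.4, 114 and 121 CPM without (log2 -1.0, SE 0.154).

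The response was set beside that of LNCaP, the parent line, in siCTRL cells under the same labels. Of 14007 genes tested in the 16 libraries, the TG response differed between the lines for 225 (1.61%), by a test of line and TG together. The C4-2B change lay above that of LNCaP for 129 genes and below it for 96. Of the genes called higher in C4-2B, 2544 were called higher in LNCaP, 17 lower and 770 not called. Of those called lower in C4-2B, 2343 were called lower in LNCaP, 12 higher and 499 not called, and a call in a single line is not a test of the difference. None of the 25 tested UPR sensors and transcription factors was called different between the lines. Among 33 effectors of ATF4 and CHOP, 2 were, both with a C4-2B change below that of LNCaP. KRT80 changed by 6.73 in C4-2B and 6.91 in LNCaP (difference -0.18, SE 0.441, adjusted p = 0.921), and DDIT3 by 2.84 and 3.30 (difference -0.46, SE 0.264). HSPA5 changed by 1.06 in C4-2B and 1.55 in LNCaP (difference -0.50, SE 0.16, adjusted p = 0.144), and XDH by 3.24 and 2.76 (difference 0.48, SE 0.189).

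**Figure D5:**
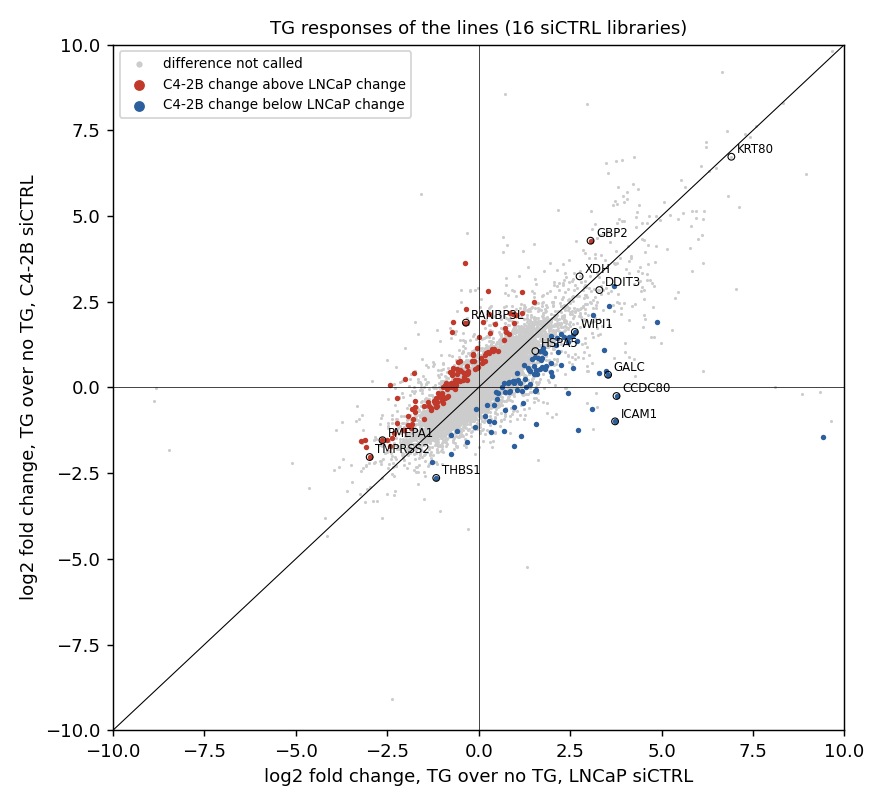
Log2 fold change of TG over no TG in siCTRL C4-2B cells (vertical axis) against that in siCTRL LNCaP cells (horizontal axis) for 14007 genes, with the line of equal change. Red points are the 129 genes whose C4-2B change lay above that of LNCaP by the test of the difference, blue points the 96 whose change lay below it, and grey points the rest. KRT80, XDH and HSPA5 lie near the line, and CCDC80, ICAM1 and GALC lie far to its right.

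CCDC80, a secreted matrix protein, had 12 ± 0.791 CPM with TG and 14.1 ± 2.89 CPM without in C4-2B. In LNCaP it had 5.7, 5.66, 7.04 and 9.05 CPM with TG, against 0.443, 0.709, 0.419 and 0.366 CPM without, and the difference of the responses was -4.02 (SE 0.31, adjusted p = 1.19e-06). GALC, a lysosomal galactosidase, changed by 0.37 in C4-2B and 3.54 in LNCaP, where it had 0.91 ± 0.37 CPM with TG and 0.0643 ± 0.05 CPM without (difference -3.17, SE 0.591, adjusted p = 0.00641). RANBP3L, a Ran-binding protein, had 8.4, 6.92, 10.4 and 8.85 CPM with TG, against 2.6, 2.69, 2.02 and 1.82 CPM without in C4-2B. Its level in LNCaP was 11.8 ± 1.41 CPM with TG and 15 ± 2.01 CPM without (difference 2.24, SE 0.241, adjusted p = 6.14e-05). TMPRSS2 fell less in C4-2B than in LNCaP, by -2.03 against -2.98 on the log2 scale (difference 0.95, SE 0.127, adjusted p = 0.000442), as did PMEPA1 (difference 1.08, SE 0.207, adjusted p = 0.0103). THBS1 fell further in C4-2B, with changes of -2.64 in C4-2B and -1.16 in LNCaP (difference -1.48, SE 0.182, adjusted p = 0.00021). GBP2 rose by 4.28 in C4-2B and 3.06 in LNCaP (difference 1.23, SE 0.212, adjusted p = 0.0045). In LNCaP ICAM1, an adhesion molecule, had 0.532 ± 0.294 CPM with TG and was at 0 in 3 of 4 untreated libraries, while in C4-2B it had 11.1 ± 1.84 CPM with TG and 21.7 ± 3.52 CPM without.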

How the data were processed

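RNA of 32 libraries from 2 prostate cancer lines was sequenced after polyA selection with a strand-specific kit, per the labels' protocols, and the 8 libraries of siCTRL C4-2B cells are compared here. The authors deposited 1 table of estimated counts for 29744 genes, whose values above 0 are not whole numbers. The submitters' processing notes name the build hg38 and, without their roles, Salmon 1.5.2, STAR 2.6.1d, cutadapt 3.4, Trim Galore 0.6.7 and FastQC 0.11.9. No source names the gene annotation.

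The estimated counts were rounded to whole numbers and fitted with edgeR 4.0.16 in R 4.3.3 (TMM factors, filterByExpr, glmQLFit and glmQLFTest). Only the 8 libraries entered the fit, and p-values were adjusted by Benjamini-Hochberg over all 13372 genes. The SE of a log2 change was derived from its F statistic. The comparison with LNCaP used 16 siCTRL libraries and tested the product of line and TG. DESeq2 1.42.0 and limma 3.58.1 served as alternatives, next to other scalings, filters, a replicate block, a correction for length and GC content, and leaving out each library; leaving out untreated replicate 2 and TG replicate 3 together was chosen after seeing the data. The scripts were tested on simulated data.

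The comparison and the 54 gene lists were chosen with earlier results of these data known, so list counts are descriptions. Named genes are the 12 greatest rises and falls among called genes of at least 5 CPM whose groups did not overlap, the members with the smallest adjusted p of each list, and members chosen after their values were seen. Of 1655 list symbols, 1652 matched the table, some by older names. Promoters are those of RefSeq, GRCh38.p14. Replicates are biological per the series text, with no record of separate culture dates. With 4 libraries a group, an exact permutation test of a single gene cannot go below p = 0.0286, so the fit across all genes was used.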

Additional observations from a re-analysis of the deposited data

Results flagged for a closer look

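In 352 groups of 4 libraries, 2 for each of the 176 genes named, 25 groups held a library whose gap to the nearest other exceeded Dixon's critical share of the group's range, which chance does in about 5% of groups. TG replicate 3 was that library in 10 groups, untreated replicate 1 in 8 and untreated replicate 2 in 4. TG replicate 3 and untreated replicate 2 stood apart over all genes. Untreated replicate 1 had the strongest trend of its deviations with GC content of the 8 libraries (r = -0.677 across genes), and its counts differed from those of untreated replicates 3 and 4 with a chi-square of 32.9 and 33.2 per gene, against 5.38 between those 2. The part of these libraries in the single values was not tested. TG replicate 3 was the highest treated library for CANX (0.976 of the range), RNF43 (0.864) and SLC7A11 (0.869). It was the lowest for ASNS (0.891), CEBPG (0.84), DHRS2 (0.869), HSPA5 (0.837), ROCK1P1 (0.881), SLC6A9 (0.84) and VEGFA (0.953). Untreated replicate 2 was the lowest untreated library for ASNS (0.833), SELK (0.897) and SRP19 (0.908) and the highest for SEC61A1 (0.877). Untreated replicate 1 was the highest for EIF2AK3 (0.983), HSPA8 (0.885) and PGM3 (0.924), and the lowest for CDKN1A (0.832), HOXB13 (0.956), ICAM1 (0.897), SLC7A8 (0.958) and UHRF1 (0.893). Untreated replicate 4 was the highest for CEBPB (0.88). TG replicate 1 was the highest treated library for MARS2 (0.839) and TG replicate 4 the lowest for RRS1 (0.831).

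The TG response of 12 named genes differed between C4-2B and LNCaP by edgeR's test of the difference. The C4-2B change lay above that of LNCaP for GBP2 (difference 1.23 on the log2 scale), HOXB13 (0.75), PMEPA1 (1.08), RANBP3L (2.24) and TMPRSS2 (0.95). It lay below for ATP2B1 (-0.72), CCDC80 (-4.02), GALC (-3.17), ICAM1 (-4.71), MOCOS (-0.47), THBS1 (-1.48) and WIPI1 (-1.01). The fitted value for ICAM1 rests on untreated LNCaP libraries of which 3 were at 0, and its size depends on the small constant added to counts. The calls for MOCOS, ATP2B1 and HOXB13 were lost when single libraries were left out. For MOCOS the adjusted p was 0.077 without C4-2B TG replicate 1, 0.067 without TG replicate 2, 0.0747 without TG replicate 4 and 0.0519 without LNCaP TG replicate 3. For ATP2B1 it lay between 0.0513 and 0.0735 in 5 such fits, and for HOXB13 between 0.0526 and 0.101 in 12.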

How the results depend on the processing

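The counts of called genes stayed within 1.5 times under every alternative run, from 2618 to 3701 higher and from 2077 to 3294 lower, with 2881 to 3446 and 2259 to 3003 when single libraries were left out. DESeq2's Wald test called 3254 higher and 3294 lower, and scaling by library size alone 3640 and 2368, which moved the median of all genes by less than 0.1. The replicate numbers did not pair the libraries: deviations of same-numbered libraries correlated at -0.071, -0.555, -0.578 and 0.256. A replicate block left 2618 higher and 2077 lower, with ribosomal proteins 36 lower, oxidative phosphorylation 13, mitochondrial ribosomal proteins 4 and calcium handling 4. It also left 7 NRF2 genes, 9 translation factors, 9 autophagy genes, 5 of N-glycosylation, 4 keratins and junction genes, 3 early response factors, 2 proteasome genes and 1 CCT subunit lower, and 5 splicing factors higher, and it left 4 genes or fewer in the other list counts it moved by over 1.5 times. The calls of ATF4 (adjusted p = 0.0674), HSP90B1 (0.0513) and SEC61A1 (0.0817) were lost. With the block and the length and GC trends together, ATF5 stood at -0.41 (adjusted p = 0.0633) and HSP90B1 at 0.30 (0.114).

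The line comparison was less stable. Under a replicate block, its 129 genes whose C4-2B change lay above that of LNCaP became 18. The 96 whose change lay below it became 27, and that count was 221 by DESeq2's Wald test. Leaving out single libraries gave 52 to 179 and 64 to 165. Among called genes that changed by at least 1 on the log2 scale, ERSE letters were in 1.15% of promoters called higher and the C/EBP-ATF core in 3.12%. ERSE-II was in 0.164% (1 promoter) of those called higher and 0.0% of those called lower. HSPD1 turned to 0.01 with library size alone. Of 1408 leave-one-out values of named genes, 10 lost and 1 gained a call. With length and GC trends taken out, NFKBIA (adjusted p = 0.0396), NR4A1 (0.0235) and PHGDH (0.0391) passed the threshold. Depth limits genes under about 1 CPM, which mostly failed the count filter. The cause of these moves was not tested.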

Other observations

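Families of genes that share a symbol stem were counted after their values were seen, with no test. Over all tested genes the shares were 24.9% higher and 21.3% lower. Of 458 tested ZNF zinc finger genes, 147 (32.1%) were called higher with TG and 51 (11.1%) lower, with a median log2 change of 0.25. Of 48 USP deubiquitinase genes, 23 (47.9%) were called higher and 5 (10.4%) lower. Of 35 TTC genes, 17 (48.6%) were called higher and 1 (2.86%) lower, and of 30 CEP genes of the centrosome, 14 (46.7%) and 1 (3.33%). Replication-dependent histone genes make transcripts that mostly lack a polyA tail, and of 27 tested HIST genes 12 (44.4%) were called higher and 0 lower. Of 62 RAB genes of vesicle traffic, 13 (21%) were called higher and 22 (35.5%) lower, and of 31 POLR polymerase subunits, 5 (16.1%) and 14 (45.2%). Of 316 LINC and antisense symbols, 85 (26.9%) were called higher, near the background share, and 43 (13.6%) lower.

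All 4 untreated libraries were at 0 for 9 genes called higher, TNFRSF9 among them. Such genes could pass the count filter only by being high with TG, so nothing is drawn from their direction. The noncoding FAM225B averaged 7.02 CPM with TG and was at least 32.8-fold higher against 3 counts per library. TP63, which encodes the basal factor p63, averaged 1.11 CPM with TG and was at least 5.2-fold higher.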
